A study of Mus musculus with 16 samples.

Results

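The protein genes of the small ribosomal subunit were followed in newly synthesized RNA of mouse embryonic stem (ES) cells in which subunits of the coactivators SAGA and ATAC were targeted. The set holds 28 protein-coding genes, chosen by name (Rpsa, Fau and others named Rps), of 32826 genes listed over the 3 deposited tables, and all 28 were present in each table and passed the filter on low counts in every comparison. Of the 28 proteins, 12 sit in the head of the subunit and 16 in its body, which includes the platform and the feet.

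E14 cells, an ES line, were kept in medium with serum, LIF and the inhibitors CHIR99021 and PD0325901. Transcripts made during 15 min of labelling with the uridine analogue 4-thiouridine (4sU) were pulled down on beads and gave 14 libraries, while 2 further libraries hold total RNA from WT. In the lines AID-Zzz3, AID-Yeats2 and AID-Tada3 the named protein carries an auxin-inducible degron, a tag that leads to its degradation when auxin is given, and Supt7l-/- cells are knockouts. Auxin (IAA) was present for 24 h in every line, also in WT, and each group is 2 libraries: 2 clones of a mutant, or 2 WT lines, of which replicate 2 overexpresses Tir1/BirA and replicate 1 does not. AID-Tada3 was sequenced with its WT libraries in project 1, AID-Yeats2 and Supt7l-/- with 1 shared pair of WT libraries in project 2, and AID-Zzz3 with its own WT libraries in project 3. Tada3 belongs to the acetyltransferase module that SAGA and ATAC share, Supt7l to SAGA, and Yeats2 and Zzz3 to ATAC. The spike-in was labelled RNA of cells of another species, from Drosophila S2 cells for project 1 and from S. pombe for the other two projects.

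The small subunit binds the mRNA, reads its codons against tRNA and, with initiation factors, finds the start codon. Its proteins are needed in equal numbers, are made in large amounts in growing cells such as ES cells, and are encoded by scattered, compact genes whose promoters in mammals are known for binding sites of housekeeping factors. These genes have also left many processed pseudogenes in the genome, copies of the spliced mRNA without introns. ATAC and SAGA acetylate histones and are known as coactivators at promoters of active genes.

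Mouse gene counts summed to 8268061 to 15994518 per 4sU library and to 4903998 and 6378707 in total RNA, and the members had 27 to 5146 reads each in 4sU libraries and 22 to 18478 in total RNA. Levels are given as CPM, the read count scaled to the effective library size, which sets the bulk of mouse genes to no change. In RNA from many cells at once, fewer cells of a kind and less RNA per cell cannot be told apart. Sox2, on the list of 8 ES cell markers, was not found among the protein-coding genes listed. The other markers of ES cells (7 genes) summed to 2409 to 4207 CPM with none at 0, against 2.33 to 10.02 CPM for 6 markers of primitive endoderm, 9.99 to 29.8 CPM for 6 of trophectoderm and 0.245 to 10.5 CPM for the 5 or 6 of fibroblasts in a table, with the AID-Yeats2 clones at 10.53 and 0.914 CPM. The part of these few reads in the results was not tested. The targeted transcript was lower than in WT in its own mutant for Tada3 (12.2 and 10.5 against 31.3 and 23.9 CPM), Yeats2 (109 and 188 against 242 and 256 CPM) and Zzz3 (288.4 and 299.8 against 430.3 and 448.4 CPM), which says nothing of the protein. Supt7l RNA in Supt7l-/- cells was at 8.87 and 14.1 CPM against 13.9 and 14.3 CPM in WT, so gene-level counts do not check the knockout.

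The genes lie on 14 chromosomes, span 1069 to 11817 bases (median 3551.5, against 21164 for all protein-coding genes) and have 3 to 7 exons. Their median transcript length is 382 to 1054 bases (median 647.5, against 1559.25). Small nucleolar RNAs, which guide modification of rRNA, lie within 8 of the genes (Rpsa, Rps2, Rps3, Rps3a1, Rps12, Rps13, Rps16 and Rps20), 14 in all. The tables give positions in mm10, and for 26 of the 28 genes GENCODE M21 has the same span.

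Promoter sequence was taken from RefSeq (GRCm38.p6) for 24 of the 28 genes, as 250 bases before to 50 bases after each start. Motifs were searched only in the 250 bases before the start. The motif CGGAAG, the core bound by ETS factors, stood on either strand in 17 of the 24 genes (70.83%), against 15.32% of 27025 genes, 28.12% of the 9910 matched protein-coding genes tested in project 2, and 15 of 34 genes of large subunit proteins. The GC box GGGCGG stood in 9 of 24 (37.5%), against 35.36% of all genes and 63.96% of those tested. TATATAA stood in 2 (Rps18 and Rps26), TATAAA in 1 (Rps2), and AAGATGGC, the core of YY1 sites, in 2 (Fau and Rps27). A match is a description of the letters, not a shown binding site. The 100 bases before the RefSeq start are shown for 4 genes as examples. Of these, 3 fell in both AID-Yeats2 and AID-Zzz3 cells (Rps18, Rps4x and Rps7), and Rps13 was nearest to no change in AID-Yeats2 cells. Likeness between promoters was not measured. All 4 genes are on the minus strand, and capitals mark the ETS core, the GC box and TATATAA on either strand. They are Rps18 at chr17:33955666-33955765, Rps4x at chrX:102189392-102189491, Rps7 at chr12:28635954-28636053 and Rps13 at chr7:116334191-116334290, and that of Rps18 lies inside the longer span the tables give for the gene (chr17:33951999-33956001).
Rps18: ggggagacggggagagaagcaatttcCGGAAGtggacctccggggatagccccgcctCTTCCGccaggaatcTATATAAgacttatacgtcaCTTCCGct
Rps4x: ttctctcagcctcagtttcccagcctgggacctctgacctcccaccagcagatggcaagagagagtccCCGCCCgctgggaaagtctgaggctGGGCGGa
Rps7: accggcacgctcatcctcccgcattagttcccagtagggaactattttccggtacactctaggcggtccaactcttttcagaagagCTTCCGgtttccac
Rps13: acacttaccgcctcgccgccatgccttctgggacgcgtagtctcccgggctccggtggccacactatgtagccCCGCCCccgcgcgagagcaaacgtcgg
Rps18 held 3 copies of the ETS core and a TATA-type motif in these bases, Rps7 1 copy of the core, and Rps4x 2 GC boxes and no core. Rps13 held 1 GC box here, and its match to CGGAAG is elsewhere in its window. Among genes that fell in AID-Yeats2 cells the core was found in 6 of 10, and among the others in 11 of 14.

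In WT cells the 28 genes took 0.230% and 0.268% of mouse reads in newly synthesized RNA of project 1 and 0.926% and 1.22% in total RNA. Levels between genes were compared per kb of median transcript length. In newly synthesized RNA they ran from 520 ± 78.6 CPM per kb (SD, n = 2) for Rps15a, a protein of the body, to 17.7 ± 1.73 for Fau, the precursor of a body protein fused to a ubiquitin-like protein, a ratio of 29.3. After Rps15a came Rps20 (396 ± 94.6), a protein of the head, Rps24 (293 ± 21.6) and Rps7 (292 ± 15.8), both of the body, and Rps19 (262 ± 30.9), a head protein whose human gene is mutated in Diamond-Blackfan anaemia. Rps24 and Rps7, and Rps7 and Rps19, differed by less than the larger SD of each pair, while Rps15a was above Rps20 and Rps20 above Rps24 in both libraries. The lower end held Rps16 (43.4 ± 4.82), Rps27 (32.2 ± 0.856), Rps2 (25.1 ± 1.53) and Fau, which differed from one another beyond their spread. In total RNA the ratio of highest to lowest was 241, from 2757 ± 393 CPM per kb for Rps14, a protein of the platform, to 11.6 ± 3.14 for Rps27 and 11.4 ± 1.66 for Fau.

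**Figure D1:**
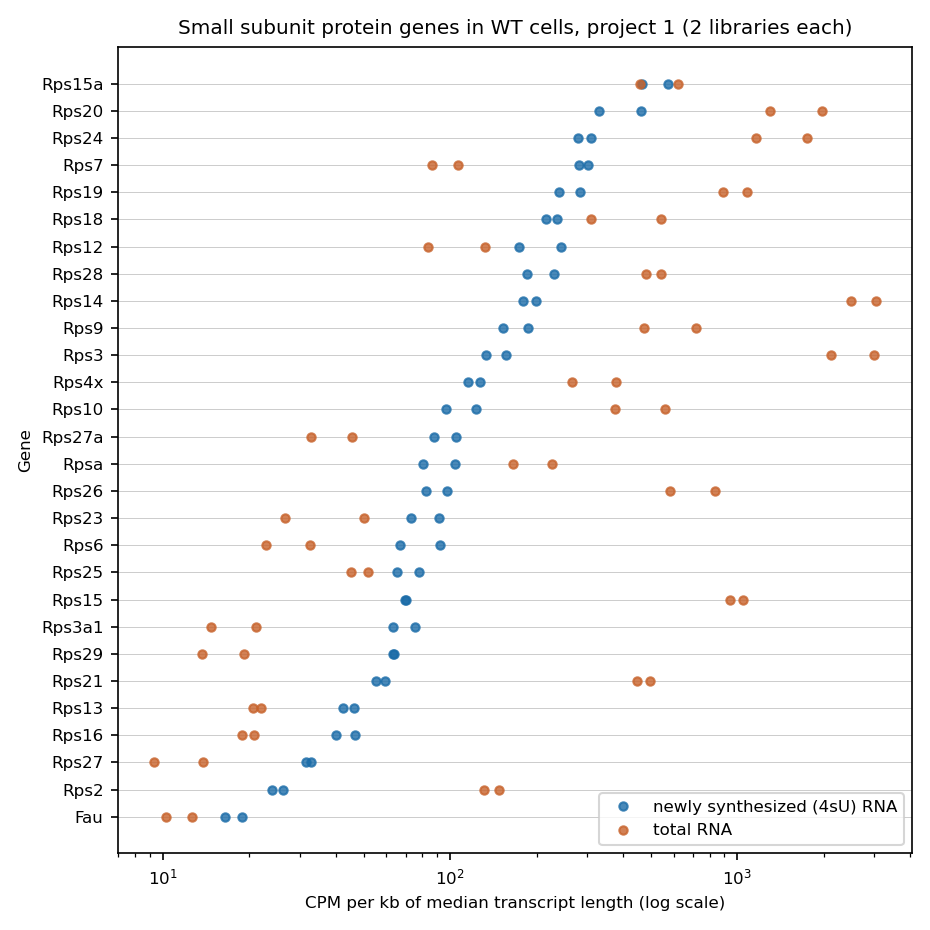
Level of each of the 28 genes in WT cells of project 1, in CPM per kb of median transcript length on a log axis, with 1 point per library (2 of newly synthesized and 2 of total RNA). Genes are ordered by their mean in newly synthesized RNA, from Rps15a at 520 to Fau at 17.7, and the total RNA points lie to the right for some genes (Rps14, Rps3) and to the left for others (Rps3a1, Rps29).

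The comparison of WT newly synthesized RNA with WT total RNA asks which transcripts are over- or under-represented among those just made. This can depend on how long each RNA lasts. The kinds of RNA also differ in preparation, such as the pull-down, and the design cannot tell these apart. The members went both ways: 15 of 28 (53.6%) were lower in newly synthesized RNA, against 33% of all 14494 genes tested, and 11 (39.3%) were higher, against 30.4%. Their median was 50% of the level in total RNA, that of all genes a log2 difference of 0.05. Both 4sU libraries were below both total RNA libraries in 15 genes and above them in 12, against 41.1% and 41.7% of all genes. Call here means an adjusted p under 0.05 in edgeR's quasi-likelihood test, and SE is the standard error of the log2 value. Head and body did not stand apart, with 7 lower and 5 higher of 12, and 8 lower and 6 higher of 16.

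Rps3, which lines the mRNA entry of the head, was at 2126 and 2988 CPM per kb in total RNA and at 133.7 and 156.3 in newly synthesized RNA. This was the largest fall, a log2 difference of -4.14 (SE 0.227, adjusted p = 1.63e-05). Rps14 was at 2479 and 3035 against 179.5 and 198.9 CPM per kb, a difference of -3.87 (SE 0.183, adjusted p = 1.19e-05). Rps15, a head protein whose tail reaches the decoding site, went from 944.6 and 1044 to 69.5 and 70.1 CPM per kb, a difference of -3.83 (SE 0.155, adjusted p = 1.10e-05). In all of these genes the groups were far apart. Rps21 was at 446 and 498 CPM per kb in total RNA and at 55.1 and 59.2 in newly synthesized RNA (log2 difference -3.05, adjusted p = 1.26e-05). Rps26, which lines the mRNA exit channel, was at 584 and 833 against 82.8 and 97.8 (log2 difference -2.97, adjusted p = 3.67e-05). Rps2, at the mRNA entry, was at 131 and 148 against 24.1 and 26.2 (log2 difference -2.47, adjusted p = 2.36e-05). The gap between the groups was wider than the spread within them in each case.

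The largest rise was that of Rps3a1, a body protein, from 14.7 and 21.1 CPM per kb in total RNA to 63.3 and 75.6 in newly synthesized RNA, a log2 difference of 1.94 (SE 0.214, adjusted p = 0.000188). Rps29, a small zinc-binding head protein, had the same difference, 1.94 (SE 0.226, adjusted p = 0.000244), with 13.7 and 19.2 against 63.4 and 63.9 CPM per kb. Rps15a, the gene with the highest level, did not differ by this test, with 458.9 and 620.9 against 464 and 575 CPM per kb (log2 difference -0.06, interval -0.51 to 0.39). Fau was above both total RNA libraries (16.5 and 18.95 against 12.6 and 10.25 CPM per kb, log2 difference 0.64) but missed the threshold (adjusted p = 0.067). With the cell line as a block it passed (adjusted p = 0.0178), which made 12 higher, since the WT lines are shared by both kinds of RNA. Without total RNA replicate 1 the calls of Rps12 and Rps25 as higher were lost, and without 4sU replicate 2 that of Rps25.

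What the genes at either end share, beyond the comparison itself, is how much of their sequence occurs elsewhere in the genome. Of the 50-base stretches of each coding sequence, the share also found in another annotated gene of GENCODE M21, mostly pseudogenes, ran from 8.09% (Rps3) to 100% (10 genes, 9 of which had a positive log2 difference). Over the 12 members with a positive difference it was 88.29% to 100% (median 100%), and over the 16 with a negative one 8.09% to 100% (median 82.6%). The 4 genes with under 50% shared, Rps3 (8.09%), Rps15 (43.26%), Rps9 (42.96%) and Rps21 (45.5%), were all called lower in newly synthesized RNA. Across the 28 genes the share and the log2 difference had r = 0.77 and rho = 0.79, a description over genes of the same 4 libraries. Rps28 (100%), Rpsa (98.8%), Rps10 (93.05%) and Rps4x (90.14%) went against it, with differences of -1.31, -1.08, -2.09 and -1.41. How reads that match several places were counted is not given in the sources used here, and the part of this in the differences, and in the 241-fold range of levels in total RNA, was not tested. Rows of the tables named as pseudogenes of these genes held 1.81% and 2.03% of the members' own reads in total RNA and 0.228% to 0.702% in 4sU libraries. Only rows with -ps in the name were counted here, 25 to 56 by project, and pseudogenes under other names were left out. Rps2 alone shared stretches with 71 annotated pseudogenes, so these percentages do not give the reads of all pseudogenes.

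**Figure D2:**
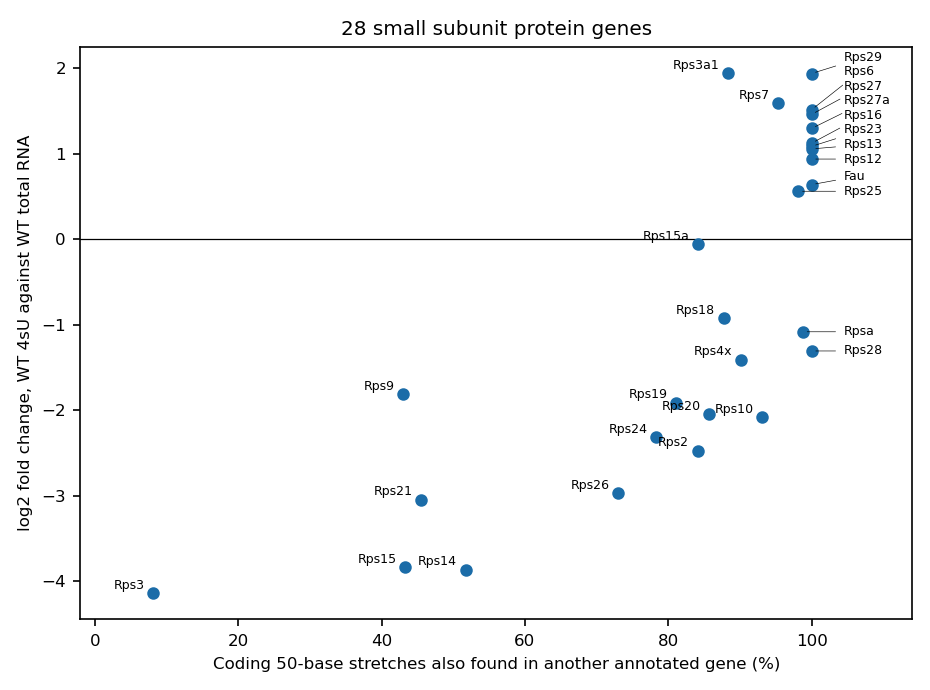
Log2 difference between newly synthesized and total RNA of WT cells (y axis, project 1) against the percentage of 50-base coding stretches that occur in another annotated gene (x axis), 1 point per gene. Genes above 0 all have at least 88.29% shared stretches, while Rps3, with 8.09%, has the lowest difference, -4.14.

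The comparison of AID-Yeats2 with WT asks how new transcription of these genes changes when an ATAC subunit is targeted for degradation. All 28 genes had lower values than in WT relative to the bulk of genes, and 11 (39.3%) were called lower and none higher, against 3.32% and 3.92% of all 14513 genes tested. The median log2 difference was -0.43, or 74% of WT, against -0.0003 for all genes. Summed over the 28 genes the level was 1617 and 1661 CPM in AID-Yeats2 clones against 2106 and 2543 CPM in WT, or 70.5% of the WT mean. In 21 genes both clones were below both WT libraries, against 25.8% of all genes, and in none above them, against 25.3%. Of the primitive endoderm markers, 6 genes with a summed level of 10.02 and 7.11 CPM in the clones against 5.51 and 5.77 CPM in WT, 2 of the 3 tested were above both WT libraries (median log2 difference 0.91) and none was called, with Foxa2 at 0 in both clones. Their part in the result was not tested.

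Rps24, a protein of the body, was at 181.2 and 222.5 CPM in WT and at 88.7 and 96.7 in AID-Yeats2 cells. This was a log2 difference of -1.12 (SE 0.0955, adjusted p = 2.28e-05), or 45.9% of WT. Rps18, a head protein that touches the large subunit, was at 84.0 and 102 CPM in WT and at 37.8 and 46.2 in AID-Yeats2, the largest fall of the set at -1.14 (SE 0.114, adjusted p = 5.96e-05). In both genes the mutant's higher clone was well below the lower WT library. Rps3a1 went from 64.9 and 74.1 CPM to 36.5 and 41.7 (log2 difference -0.83, SE 0.102, adjusted p = 0.000234). Rps14 went from 101.5 and 107.6 CPM to 65.2 and 64.9 (log2 difference -0.68, SE 0.0854, adjusted p = 0.000261). For Rps7, a platform protein, the values were 104.5 and 120.0 CPM against 54.6 and 66.7 (log2 difference -0.89, SE 0.109, adjusted p = 0.00037). The groups did not overlap in any of these genes. Rps10, a head protein that is ubiquitinated when ribosomes collide, was at 65.4 and 77.9 CPM in WT and at 43.8 and 39.5 in AID-Yeats2 (log2 difference -0.78, SE 0.104, adjusted p = 0.00042).

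Rps4x, encoded on the X chromosome and placed in a foot of the body, fell about as far as the leading genes, from 61.9 and 84.8 CPM to 32.5 and 34.5 (log2 difference -1.13, SE 0.138, adjusted p = 0.000661). The other calls had larger p-values: Rps2 at -0.70, Rps3 at -0.63, Rps15a at -0.61 and Rps9, a protein of the mRNA entry channel, at -0.38. The call of Rps2 was lost without either AID-Yeats2 clone, and that of Rps9 without either clone or without WT replicate 2. Calls came from 3 of 12 head proteins (Rps3, Rps10 and Rps18) and 8 of 16 body proteins, with medians of -0.36 and -0.47. The 17 genes that were not called ranged from -0.53 (Rps15) to -0.05 (Rps13).

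At that end, Rps13, a body protein, was at 32.8 and 39.3 CPM in WT and at 34.9 and 34.6 in AID-Yeats2, with a log2 difference of -0.05 (interval -0.30 to 0.20). Rps19 was at 122 and 140 CPM against 120.0 and 125, a difference of -0.10 (interval -0.28 to 0.08). In both genes the groups overlapped, and the lower end of each interval lies above the values of all 11 genes called. Rps6, known for its phosphorylation by a growth-signalling kinase, was lower in both clones (32.0 and 37.3 against 41.5 and 58.8 CPM) but missed the threshold (log2 difference -0.53, adjusted p = 0.0653).

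**Figure D3:**
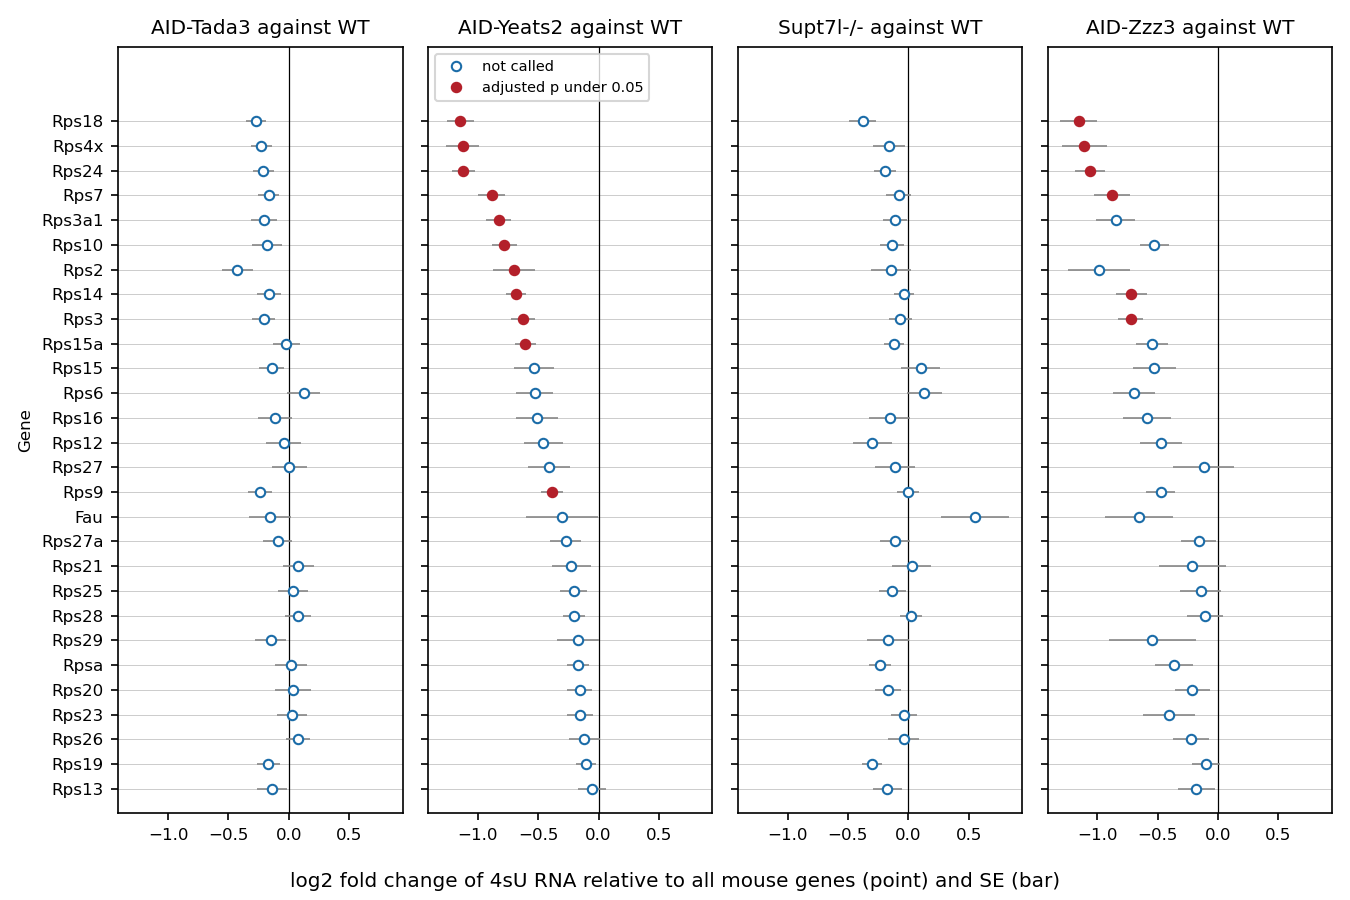
Log2 difference from WT in newly synthesized RNA for each of the 28 genes in the 4 mutants (points), with its SE (bars), ordered by the value in AID-Yeats2. Filled points have an adjusted p under 0.05 by edgeR: 11 in AID-Yeats2, 6 in AID-Zzz3 and none in AID-Tada3 or Supt7l-/-.

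AID-Zzz3 cells carry the degron on another ATAC subunit and were compared with WT libraries of their own. Again all 28 genes had lower values than in WT, and 6 (21.4%) were called lower and none higher, against 0.303% and 0.681% of 14529 genes tested. The median log2 difference was -0.53, or 69.4% of WT, against 0.003 for all genes. The summed level was 1192 and 1538 CPM in AID-Zzz3 clones against 2013 and 1923 CPM in WT. In 19 genes both clones were below both WT libraries, against 21.9% of all genes, and in none above them, against 22.8%. The primitive endoderm markers summed to 5.745 and 6.80 CPM in the clones against 5.04 and 4.39 CPM in WT, the 3 tested were above both WT libraries (median log2 difference 0.54) and none was called, with Foxa2 at 0 in both clones. Their part here was not tested either.

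The 6 genes called were Rps3, Rps4x, Rps7, Rps14, Rps18 and Rps24. Rps24 was at 182.0 and 185.9 CPM in WT and at 78.5 and 97.3 in AID-Zzz3 cells (log2 difference -1.06, SE 0.123, adjusted p = 0.0182). Rps18 was at 75.5 and 72.7 CPM against 28.0 and 38.2, the largest fall at -1.15 (SE 0.153, adjusted p = 0.02055), or 45% of WT. Rps4x followed, with 62.8 and 60.9 CPM against 22.4 and 34.4 (log2 difference -1.11, SE 0.188, adjusted p = 0.0434). These WT pairs lay close together and the clones further apart, with replicate 1 the lower in each gene. Rps7 went from 96.4 and 92.5 CPM to 43.2 and 59.1 (log2 difference -0.88, SE 0.151, adjusted p = 0.0428). Rps3 went from 100.9 and 105.1 CPM to 59.8 and 64.7 (log2 difference -0.72, SE 0.105, adjusted p = 0.02435). Rps14 went from 93.0 and 83.3 CPM to 48.7 and 58.1 (log2 difference -0.72, SE 0.126, adjusted p = 0.0458). In none of these 6 did the groups overlap.

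Of the genes not called, Rps2 had the lowest value, -0.99 (15.7 and 15.7 CPM in WT against 5.63 and 9.86, adjusted p = 0.146), and Rps3a1 came next at -0.85 (adjusted p = 0.0641). At the other end, Rps19 was nearest to no change at -0.10, with 110.9 and 110.6 CPM in WT against 94.7 and 112 in AID-Zzz3. AID-Zzz3 replicate 1 had the fewest reads of all 4sU libraries (8268061) and the lowest summed level of these genes. Without it no member was called, against 0.0131% of all genes lower, and the median was -0.36. Without replicate 2, 5 were called (Rps3a1, Rps4x, Rps7, Rps18 and Rps24), against 0.206% of all genes, and the median was -0.76.

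**Figure D4:**
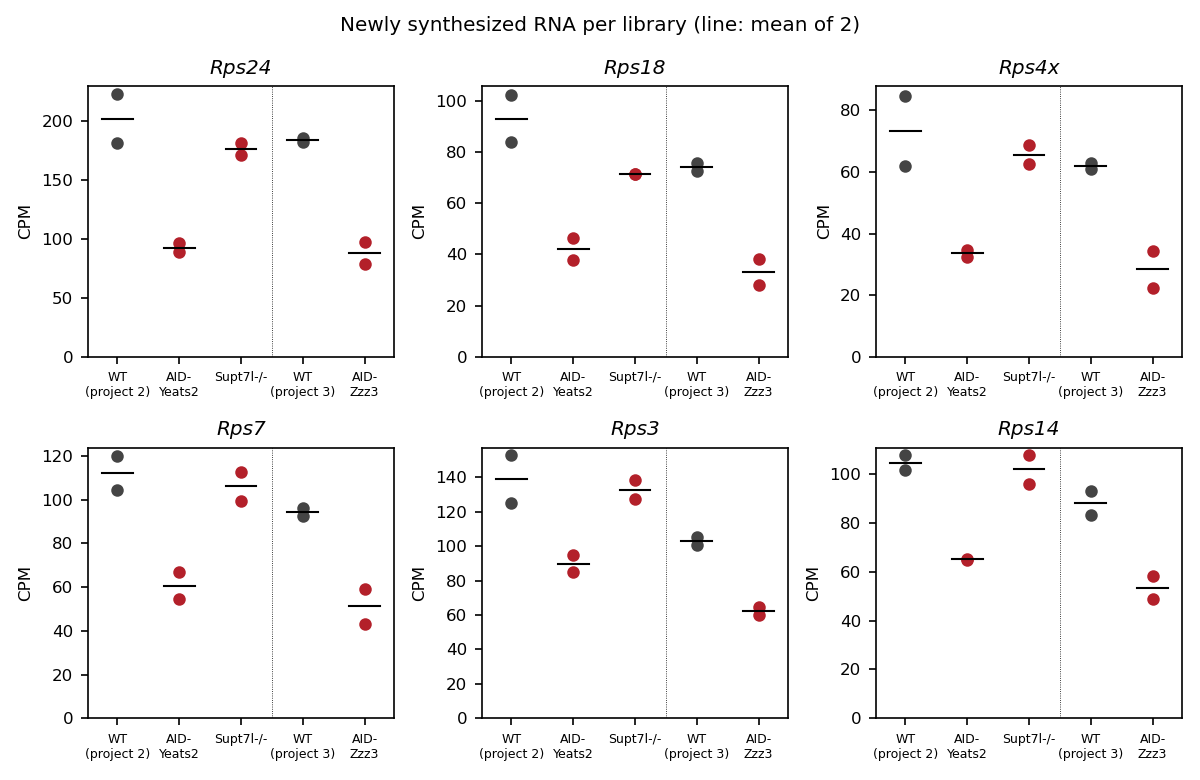
CPM in each library (points) and the mean of 2 (lines) for the 6 genes called lower in both AID-Yeats2 and AID-Zzz3, with WT and both mutants of project 2 to the left of the dotted line and project 3 to the right. AID-Yeats2 and AID-Zzz3 points lie below all WT points of their project, such as Rps24 at 88.7 and 96.7 against 181.2 and 222.5 CPM, while those of Supt7l-/- lie near or within the WT range except for Rps18.

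The same genes led in both ATAC mutants. All 6 genes called in AID-Zzz3 were also called in AID-Yeats2, which is 100% of the AID-Zzz3 calls and 54.5% of those in AID-Yeats2. The same overlap was not counted over all genes called, so the 100% is not shown to be particular to this set. These comparisons use different WT libraries and clones, but both WT pairs are a plain line and a Tir1/BirA line. Across the 28 genes the log2 differences had r = 0.89 and rho = 0.83, a description over genes. In the joint fit no member differed between the AID-Yeats2 and AID-Zzz3 effects, nor did any of the 15426 genes tested (0%), by edgeR at an adjusted p under 0.05. At an unadjusted p under 0.05 there were 0 members and 378 of all genes, and DESeq2 called 0 members. The AID-Yeats2 effect on Rps10 was 0.25 lower on the log2 scale than the AID-Zzz3 effect (interval -0.63 to 0.13), the smallest p of the 28, and that on Rps29 0.36 higher (interval -0.51 to 1.24), the largest positive difference. For Rps18 the difference was 0.01 (interval -0.39 to 0.40) and for Rps24 -0.06 (interval -0.38 to 0.27). All 28 intervals held 0, and with bounds as far out as -0.886 and 1.25 they leave room for sizeable differences.

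**Figure D5:**
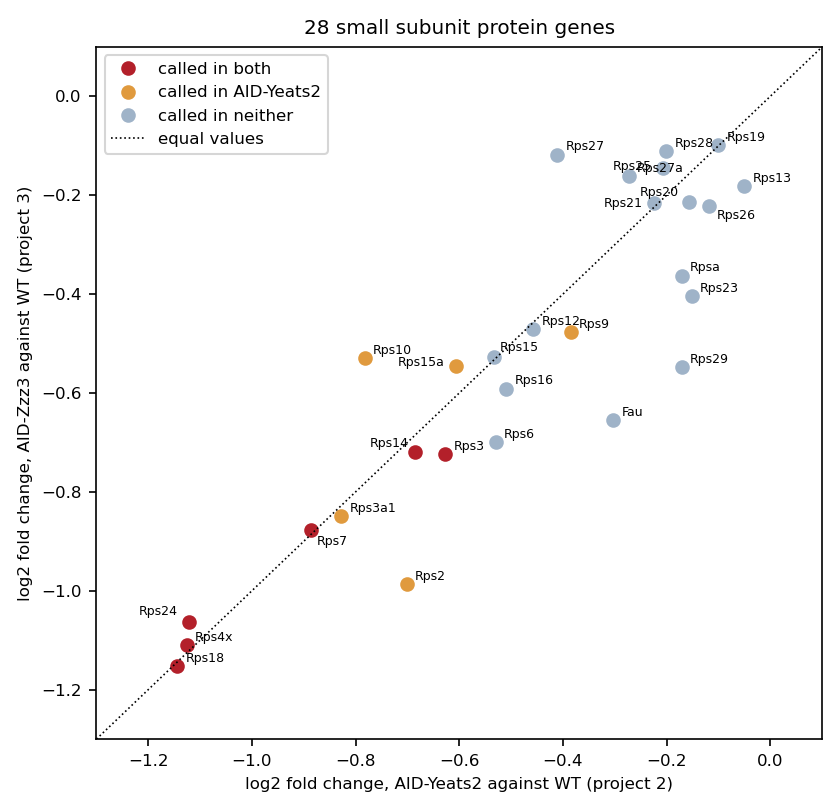
Log2 difference from WT in AID-Yeats2 (x axis, project 2) against that in AID-Zzz3 (y axis, project 3), 1 point per gene, with equal values on the dotted line. Rps18, Rps4x and Rps24 lie lowest in both, at -1.14, -1.13 and -1.12 against -1.15, -1.11 and -1.06, and Rps19 and Rps13 lie near 0.

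Features of the genes had weaker relations to the size of the fall. The share of coding stretches found elsewhere had r = 0.13 (rho = 0.27) with the AID-Yeats2 difference and r = 0.12 (rho = 0.24) with that in AID-Zzz3. With the difference between kinds of RNA it had r = 0.77 (rho = 0.79). On the log2 scale, gene span had r = -0.46 and -0.36 (rho = -0.39 and -0.27). WT level per kb, also as log2, had r = -0.25 and -0.08 (rho = -0.22 and -0.10), all across 28 genes. Genes that hold small nucleolar RNAs had a median of -0.48 in AID-Yeats2 (3 of 8 called) against -0.40 for the other 20, and -0.53 against -0.53 in AID-Zzz3.

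In AID-Tada3 cells the degron is on a subunit of the acetyltransferase module common to both complexes. No member was called lower or higher, against 0.0331% and 0% of 15099 genes tested, and the median log2 difference was -0.14, or 90.8% of WT. At an unadjusted p under 0.05 there were 5 members (1208 of all genes), and DESeq2 called 0. In 12 genes both clones were below both WT libraries, against 20.3% of all genes, and in none above them, against 19.3%. Rps2 had the smallest p, at 22.6 and 24.3 CPM in WT and 17.7 and 17.2 in AID-Tada3 (log2 difference -0.43, interval -0.72 to -0.14, adjusted p = 0.473). Rps18 came next, at 112 and 120.5 CPM against 96.8 and 95.8 (log2 difference -0.27, adjusted p = 0.4945). In both genes the groups did not overlap, but the differences were small.

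Further genes by p were Rps4x (88.5 and 95.8 against 80.6 and 76.7 CPM, log2 difference -0.23) and Rps24 (198 and 216 against 177 and 181 CPM, log2 difference -0.21). Rps9 was at 117 and 140 CPM in WT against 112 and 106 (log2 difference -0.24), and Rps3 at 124 and 143 against 121 and 110.0 (log2 difference -0.21). The highest value was that of Rps6 at 0.12 (49.6 and 67.1 against 65.3 and 61.9 CPM), with overlapping groups. WT replicate 1 had a lower summed level of the 28 genes than replicate 2, 2294 against 2709 CPM, with the AID-Tada3 clones at 2426 and 2242 CPM. Without WT replicate 1 the test called 4 lower (Rps3, Rps9, Rps10 and Rps18), against 0.553% of all genes, and without WT replicate 2 it called 2 higher (Rps6 and Rps20), against 6.56%.

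Supt7l-/- cells are knockouts for a subunit of SAGA. No member was called, against 2.02% lower and 1.32% higher of 14513 genes tested. The median log2 difference was -0.11, or 92.4% of WT, with 23 genes below 0. At an unadjusted p under 0.05 there were 3 members (2655 of all genes), and DESeq2 called 0. In 4 genes both clones were below both WT libraries, against 24.4% of all genes, and in 1, Fau, above them, against 24%. Rps19 had the smallest p, at 122 and 140 CPM in WT and 108 and 104 in Supt7l-/- (log2 difference -0.30, interval -0.48 to -0.13, adjusted p = 0.0614). Rps18 was at 84.0 and 102 CPM against 71.5 and 71.5 (log2 difference -0.38, adjusted p = 0.0833), the lowest value. The highest was Fau, at 6.77 and 7.16 CPM against 10.5 and 10.0 (log2 difference 0.56, adjusted p = 0.324). Of the marker lists, the ES genes Tfcp2l1 and Zfp42 were called lower in these cells (-0.24 and -0.25) and the trophectoderm gene Gata3 higher (1.29). Of the 4 trophectoderm genes tested, Cdx2 went the other way (-0.77) and was not called.

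Next by p in Supt7l-/- were Rpsa, a body protein also known as the laminin receptor, at 76.5 and 86.0 CPM in WT against 72.5 and 65.7 (log2 difference -0.23), and Rps24 at 181.2 and 222.5 against 170.8 and 181.5 (log2 difference -0.20). Rps12, of the beak of the head, was at 61.5 and 88.6 CPM in WT against 63.9 and 57.9 (log2 difference -0.30). The WT pair of project 2 differed as that of project 1, with 2106 CPM over the 28 genes in replicate 1 and 2543 in replicate 2, while in project 3 the order was the other way (2013 and 1923 CPM). Without WT replicate 1, 8 members were called lower in Supt7l-/-, against 8.91% of all genes, and 18 in AID-Yeats2, against 7%. Without WT replicate 2, none was lower and 1 (Rps6) higher in Supt7l-/-, against 2.65% and 1.67% of all genes, and the median there turned to 0.03. The same step left 10 lower in AID-Yeats2, against 6.24%.

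AID-Yeats2 was also compared directly with Supt7l-/- within project 2. The log2 differences are between the mutants, but the WT libraries were part of the fit and so of its filter, scaling and spread. A degron line is set against a knockout, so the complex and the kind of lesion cannot be told apart. Here 13 of 28 (46.4%) were lower in AID-Yeats2, against 7.32% of all genes, and none was higher, against 8.95%. They were the 11 genes called against WT and 2 more, Rps6 and Rps15. Leaving out any of the 4 libraries ended the calls of Rps2 and Rps9, that of Rps6 was lost without any but AID-Yeats2 replicate 2, that of Rps15 without any but AID-Yeats2 replicate 1, and that of Rps15a without AID-Yeats2 replicate 1. The other 8 calls held in each of the 11 other settings run. The leading genes were Rps24 (88.7 and 96.7 against 170.8 and 181.5 CPM, log2 difference -0.93, adjusted p = 5.51e-05), Rps14 (65.2 and 64.9 against 107.8 and 95.9 CPM, -0.65, adjusted p = 0.000218) and Rps3a1 (36.5 and 41.7 against 65.0 and 63.9 CPM, -0.72, adjusted p = 0.000393). Rps7 (-0.81), Rps18 (-0.77) and Rps10 (-0.65) followed, and Rps4x had the largest fall at -0.97 (SE 0.139, adjusted p = 0.000969). The highest value was that of Rps19 at 0.20 (120.0 and 125 against 108 and 104 CPM, adjusted p = 0.114). The groups were apart in all of these genes, and over the set both AID-Yeats2 clones were below both Supt7l-/- clones in 21 genes and above them in 2, against 31.5% and 30.2% of all genes. In the same comparison 4 of 7 ES markers were called higher in AID-Yeats2. Of 3 primitive endoderm markers tested, Pdgfra was called higher (1.29), while Gata4 (-0.46) and Gata6 (-0.06) were below 0 and not called. Of 4 trophectoderm markers tested, Gata3 was called lower (-1.21), while Cdx2 was above 0 (0.60) and not called. The part of these markers in the result was not tested.

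Between the AID-Yeats2 and AID-Tada3 effects, each against its own WT, 2 members differed, against 0.357% of 15426 genes lower and 1.08% higher. The AID-Yeats2 effect was lower by a log2 value of -0.92 for Rps24 (SE 0.151, adjusted p = 0.00579) and -0.88 for Rps18 (SE 0.181, adjusted p = 0.0222). Rps4x (-0.90, adjusted p = 0.0829), Rps7 (-0.73, adjusted p = 0.0688), Rps14 (-0.53, adjusted p = 0.101) and Rps10 (-0.60, adjusted p = 0.103) came next and missed the threshold, and Rps13 had the highest value (0.08). Without AID-Yeats2 replicate 1 neither gene passed. Leaving out WT replicate 1 or either AID-Tada3 clone of project 1, or WT replicate 2 of project 2, ended the call of Rps18.

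Other genes of the ribosome and of its assembly were counted for comparison. Of 44 large subunit genes tested, 29 were lower in AID-Yeats2 (median -0.78), 9 in AID-Zzz3 (median -0.65) and none in AID-Tada3 (median -0.13) or Supt7l-/- (median -0.12), with none higher. Rpl31 fell by 1.07 in AID-Yeats2 and by 1.05 in AID-Zzz3, and Rpl38 by 1.26 and 1.17 on the log2 scale.

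Of 34 genes for assembly and export of the small subunit, 1 was lower (Riok2, a kinase of late maturation, -0.32) and 1 higher (Utp20, 0.29) in AID-Yeats2, with a median of -0.03, and none was called in AID-Zzz3 (median -0.04). Of 32 genes of the mitochondrial small subunit none was called in either, with medians of -0.03 and 0.04. Of 23 initiation factors and other proteins that bind the small subunit, 4 were lower in AID-Yeats2 and 1 in AID-Zzz3. That 1 was Rack1, a scaffold protein bound to the head, which fell by 0.84 in AID-Yeats2 and by 0.74 in AID-Zzz3. Eif3d, the cap-binding subunit of initiation factor 3, was at -1.03 in AID-Yeats2 and at -0.74 in AID-Zzz3 (adjusted p = 0.0818).

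These values are relative to the bulk of mouse genes. Mouse reads per spike-in read, a measure of the amount of new RNA, were 4.675 ± 0.573 (SD, n = 2) in AID-Yeats2 and 5.135 ± 0.915 in Supt7l-/- against 6.58 ± 0.0235 in WT, 10.6 ± 0.0858 in AID-Zzz3 against 13.6 ± 0.886, and 6.83 ± 0.546 in AID-Tada3 against 7.625 ± 0.731. The exact permutation test gave p = 0.333 for each but AID-Tada3 (0.667), and 0.333 is the smallest p that 2 against 2 libraries allow. Scaled to the spike-in, 26 members were lower in AID-Yeats2, 22 in AID-Zzz3, 1 in Supt7l-/- (Rps18) and 0 in AID-Tada3, against 23.5%, 24.7%, 4.45% and 1.48% of all genes lower under this scaling, and the median of all genes moved by -0.50, -0.36, -0.36 and -0.16 log2. The authors' deposited table lists 26, 23, 3 and 0 members as lower, with medians of -0.81, -0.72, -0.43 and -0.25. Of all genes with an adjusted p in the authors' deposited table, 48.9%, 35.7%, 8.86% and 0.0559% are lower.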

How the data were processed

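Per the submitters' processing notes, the tools named are STAR 2.5.3a, Bowtie2 2.2.8, cutadapt 1.10, bcl2fastq 2.17.1.14, DESeq2 1.16.1 and HTSeq 0.6.1p1, with mm10, BDGP6, sacCer3 and ASM294v2 among the builds named. Read length and the handling of reads that match several places are not given in the sources used here. The authors deposited 3 tables with raw counts per gene and library. The log2 fold changes and adjusted p-values of the authors' own comparisons stand in the same deposited tables and were only quoted. Per the labels' protocols, the kit keeps strand and the newly synthesized RNA was not depleted of rRNA.

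Mouse counts were tested with edgeR 4.0.16 (TMM scaling, quasi-likelihood, R 4.3.3), each mutant against the WT libraries of its own project, after a filter on genes by a minimum count of 10, with Benjamini-Hochberg adjustment over all genes tested and a threshold of 0.05. AID-Yeats2, Supt7l-/- and their WT were fitted together. Differences between effects came from 1 fit of the 14 4sU libraries. Spike-in scaling used spike-in genes with at least 10 counts. Alternatives were spike-in scaling, DESeq2 1.42.0 and its size factors, other filters, a joint fit, replicate blocks and leaving out each library, where the lone sample of a group is assumed to vary like the others. The 2 WT lines gave both 4sU and total RNA, and same-line libraries deviated together (correlation 0.581 over 10601 genes), so they are paired by cell line. The replicates of a mutant are clones, and those of WT are a plain line and a Tir1/BirA line. The p-values thus rest on the spread between clones and on the difference between the WT lines. Between the libraries of a pair, chi-square per degree of freedom was 16.3, 13.1 and 14.3 for 4sU WT of projects 1, 2 and 3. It was 4.6 for AID-Tada3, 5.13 for AID-Yeats2, 3.47 for Supt7l-/- and 8.06 for AID-Zzz3.

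Genes named with their values are, in each comparison, the 6 members with the smallest p and those with the largest rise and fall, plus the 2 nearest to 0 in AID-Yeats2, and other lists are counted. Members named beyond this rule (further calls and near misses, such as Rps6 in AID-Yeats2, Fau, Rps15a and Rps29 in total RNA, and Rps2, Rps3a1 and Rps19 in AID-Zzz3) were chosen after their values were seen. The members and lists were chosen with earlier results of these data known. On simulated counts, changes by 2-fold were recovered for 58% of genes in AID-Yeats2 (14230 genes), and for 16% in the difference of the AID-Yeats2 and AID-Zzz3 effects (15074 genes). The simulation gave every gene and library the same dispersion and drew the changed genes at random from all levels. These percentages therefore do not give the share of changes that could be found among the members. Sequences came from RefSeq, gene models from GENCODE M21.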

Additional observations from a re-analysis of the deposited data

Results flagged for a closer look

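The direct test of AID-Yeats2 against Supt7l-/- gave 13 genes that differed between these mutants, all lower in AID-Yeats2. In the head they were Rps3 (log2 difference -0.5618), Rps10 (-0.647), Rps15 (-0.6358) and Rps18 (-0.7673). In the body they were Rps2 (-0.5544), Rps3a1 (-0.7201), Rps4x (-0.9678), Rps6 (-0.663), Rps7 (-0.8061), Rps9 (-0.3801), Rps14 (-0.647), Rps15a (-0.4893) and Rps24 (-0.9265). Of these calls, 8 held in each of the 11 other settings run, while Rps15a held in 9, Rps15 in 8, Rps6 in 7, Rps9 in 6 and Rps2 in 3. The test of the AID-Yeats2 effect against the AID-Tada3 effect gave Rps18 (-0.8791) and Rps24 (-0.9171). Leaving out 1 library at a time ended the call of Rps18 in 5 cases and that of Rps24 in 1.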

How the results depend on the processing

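Each count of members lower is followed by the share of all genes lower in the same setting. Ranges cover the same settings, but in AID-Tada3 the highest count and the highest share come from different settings. With spike-in scaling it was 26 in AID-Yeats2 (23.5%), 22 in AID-Zzz3 (24.7%), 1 in Supt7l-/- (4.45%) and 9 in the difference of the AID-Yeats2 and AID-Tada3 effects (2.02%). With no filter it was 13 in AID-Zzz3 (1.19%), 3 in Supt7l-/- (2.49%; Rps12, Rps18, Rps19) and 5 in that difference (0.546%; Rps7, Rps10, Rps14, Rps18, Rps24). In AID-Zzz3 a minimum of 50 counts gave 3 (0.327%; Rps3, Rps18, Rps24) and the joint fit 11 (1.67%), and DESeq2 gave 4 in that difference (0.605%; Rps4x, Rps7, Rps18, Rps24). These small sets were named after their values were seen, and the causes were not tested. Leaving out 1 library at a time gave 9 to 18 lower in AID-Yeats2 (0.58% to 7% of all genes), 0 to 6 in AID-Zzz3 (0.0131% to 1.13%), 0 to 8 in Supt7l-/- (0.184% to 8.91%) with 0 to 1 higher, 0 to 4 in AID-Tada3 (0% to 6.31%) with 0 to 2 higher, and 0 to 7 in that difference (0.0679% to 2.51%). Of the 11 genes called in AID-Yeats2, 9 passed in each of the 10 other settings run, while Rps2 was lost in 4 (adjusted p = 0.0656 to 0.252) and Rps9 in 5 (adjusted p = 0.0543 to 0.254), DESeq2 and the joint fit among them.

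With the cell line as a replicate block, newly synthesized against total RNA gave 15 lower (37.2% of all genes) and 12 higher (36.5%). AID-Yeats2 and Supt7l-/- clones share only a number (correlation 0.0771 over 9996 genes), and that block gave 16 lower (14.9%) and 1 higher (16.7%; Rps19). With 2 libraries a group and as few as 27 reads for a member, small differences were not detectable.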
